A study of Mus musculus with 4 samples.

Results

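SHP binding was described at the heat shock and DnaJ chaperone genes of mouse liver, with vehicle and with FGF19. The genes were taken by symbol from the GENCODE M1 annotation of the mouse genome (mm9), as protein-coding genes whose symbol starts with Dnaja, Dnajb, Dnajc, Hspa, Hspb, Hspd, Hspe, Hsph, Hsp90 or Cct followed by a digit, together with Tcp1 and Hsf1. This gave 86 gene entries of 22380 protein-coding genes. They carry 85 symbols, because Hspa14 is annotated as 2 overlapping entries. The rule uses no measured value. A gene was counted as having a peak when a peak interval lay within 5 kb of its body, and 14 of 1508 vehicle peaks and 30 of 3155 FGF19 peaks met this condition.

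Chaperones bind unfolded proteins and help them to fold, to assemble or to reach the proteasome. Hsp70 proteins do this in cycles of ATP hydrolysis, which J-domain proteins of the DnaJ family start and which nucleotide exchange factors such as Hsp110 reset. Hsp90 acts on partly folded clients such as kinases and steroid receptors, small heat shock proteins hold unfolded chains, and the Hsp60 and TRiC chaperonins enclose chains in a chamber. Hsf1 switches on many of these genes after heat by binding heat shock elements in their promoters, and the endoplasmic reticulum members are switched on through ER stress elements when unfolded proteins collect in that compartment. SHP cannot bind DNA by itself and is brought to chromatin by other proteins, where it mostly represses transcription, and FGF19 is an intestinal hormone that is released after a meal and signals to the liver.

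The livers came from male wild type C57BL/6 mice, 8 to 12 weeks old. Both groups had been without food for 12 h. One group received vehicle and the other FGF19 at 1 mg/kg by the tail vein, and tissue was taken 2 h later. Chromatin of 3 mice was pooled for each group and precipitated with an SHP antibody (sc-30169), which left 1 ChIP library and 1 input library per group. With 1 library per group no difference between the groups could be tested, no replicate error exists, and every comparison of vehicle with FGF19 below is a comparison of 2 libraries. Whole liver was used, so a change in occupancy per cell and a change in the share of cells that are bound cannot be told apart. No library from mice without SHP was analysed here.

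The vehicle ChIP library was the deeper, with 15473647 tags after the authors' filter against 13444078 for FGF19. Each peak has a pileup, which is the number of extended tags over its summit, and a fold enrichment, which is the ratio of that pileup to the local background expected from the input library. The -log10 q of the authors' peak caller is the third measure. Signal that did not reach the authors' q cutoff of 0.05 was not analysed, so a gene without a peak had no called peak at this depth and cannot be called unbound. Percentages are followed by their 95% interval (Wilson), in which only counting error enters.

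SHP peaks were found near 35 of the 86 chaperone genes in at least one of the lists. In the vehicle list 15 genes had a peak (17.4%, 95% interval 10.9 to 26.8), beside 7.93% of all protein-coding genes. In the FGF19 list 27 genes had a peak (31.4%, 22.6 to 41.8), beside 16.3% of all protein-coding genes. Both shares lay above the share over all genes, and the FGF19 list was the longer at the chaperone genes as it was in the genome as a whole.

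The genes were then divided by list. Dnajb4, Dnajc7, Hspa5, Hspa8, Hspa9, Hsp90aa1 and Cct5 had a peak in both, which is 7 genes (8.14%, 4.0 to 15.9, beside 4.31% of all genes). They were 7 of 15 vehicle genes and 7 of 27 FGF19 genes, beside 964 of 1774 and 964 of 3652 over all genes. By peak, 6 of 14 with vehicle and 6 of 30 with FGF19 overlapped the other list, beside 45.5% and 21.8% of all peaks. A peak in the FGF19 list only was found at 20 genes (23.3%, 15.6 to 33.2, beside 12.0%), and a peak in the vehicle list only at 8 genes (9.3%, 4.79 to 17.3, beside 3.62%). The order of the lists turned with their length. When the FGF19 list was shortened to its 1508 peaks with the smallest q, to match the vehicle list, 12 chaperone genes kept an FGF19 peak, beside 8.06% of all genes, against 15 with a vehicle peak. A peak in the shortened FGF19 list only was then found at 7 genes, and in the vehicle list only at 10. No share over all genes is given for these counts, so they say nothing about chaperone genes in particular.

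Most of these peaks lay in the promoters of the chaperone genes. A summit within 1 kb of a transcription start site (TSS) of the gene was found at 13 genes with vehicle (15.1%, 9.05 to 24.2, beside 5.52% of all genes) and at 23 with FGF19 (26.7%, 18.5 to 36.9, beside 12.5%). Counted by peak, this held for 12 of the 14 with vehicle (85.7%, 60.1 to 96.0) and 25 of the 30 with FGF19 (83.3%, 66.4 to 92.7). All peaks within 5 kb of a protein-coding gene were counted by a TSS of any such gene. A summit within 1 kb was found in 1077 of 1436 with vehicle (72.7 to 77.2%) and 2524 of 2998 with FGF19 (82.8 to 85.5%). The chaperone peaks were counted only by a TSS of the chaperone gene itself, which is stricter, so the shares are not alike in measure. The peaks of Dnajc14, Dnajc16, Dnajc9 and Hspa1l and the first Hspb9 peak had only a TSS of another gene within 1 kb. The TSS of any annotated transcript was used here, also where it lies inside the gene. From summit to TSS the median distance in the chaperone promoter peaks was 53 bp in the vehicle list and 113 bp in the FGF19 list. The summit was upstream of the nearest TSS in 10 of the 12 vehicle peaks and in 15 of the 25 FGF19 peaks. Another protein-coding gene had a TSS within 1 kb of the summit in 6 of the 14 peaks with vehicle and in 11 of the 30 with FGF19, and there the chaperone gene and its neighbour cannot be told apart as the bound promoter.

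**Figure D1:**
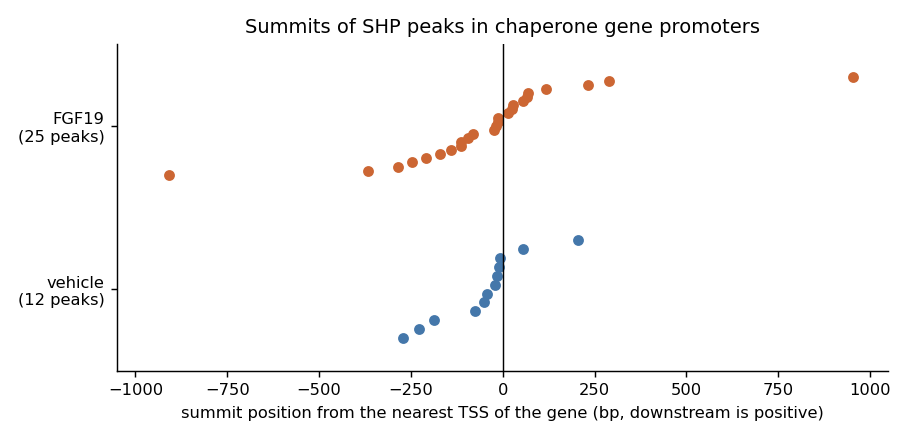
Position of each promoter summit relative to the nearest TSS of its chaperone gene (horizontal axis, bp, downstream positive), for 12 vehicle peaks and 25 FGF19 peaks. Within a list the points are ordered by position, and the vertical offset carries no value. The FGF19 summits run from Hsp90ab1 at -909 to an internal TSS of Hspa5 at 954, and 8 vehicle and 12 FGF19 summits lie within 100 bp of a TSS.

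The families, set by gene symbol, were then counted one by one. Over all protein-coding genes, 7.93% had a vehicle peak and 16.3% an FGF19 peak. In the DnaJ proteins of types A and B, most of which serve cytosolic Hsp70, 1 of 17 genes had a vehicle peak (5.88%, 1.05 to 27.0) and 8 had an FGF19 peak (47.1%, 26.2 to 69.0). In DnaJ type C, a mixed group of J-domain proteins with specialised tasks, the counts were 4 and 6 of 28 genes. In Hsp70 they were 3 and 5 of 14. Hsp60 and Hsp10, which share a promoter region, were in the vehicle list only. The TRiC genes had peaks at 3 of 10 with vehicle (30.0%, 10.8 to 60.3) and 2 of 10 with FGF19 (20.0%, 5.67 to 51.0). In the FGF19 list of 1508 peaks, 4 of the 17 DnaJ type A and B genes and 0 of the 10 TRiC genes remained, beside 8.06% of all genes.

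**Figure D2:**
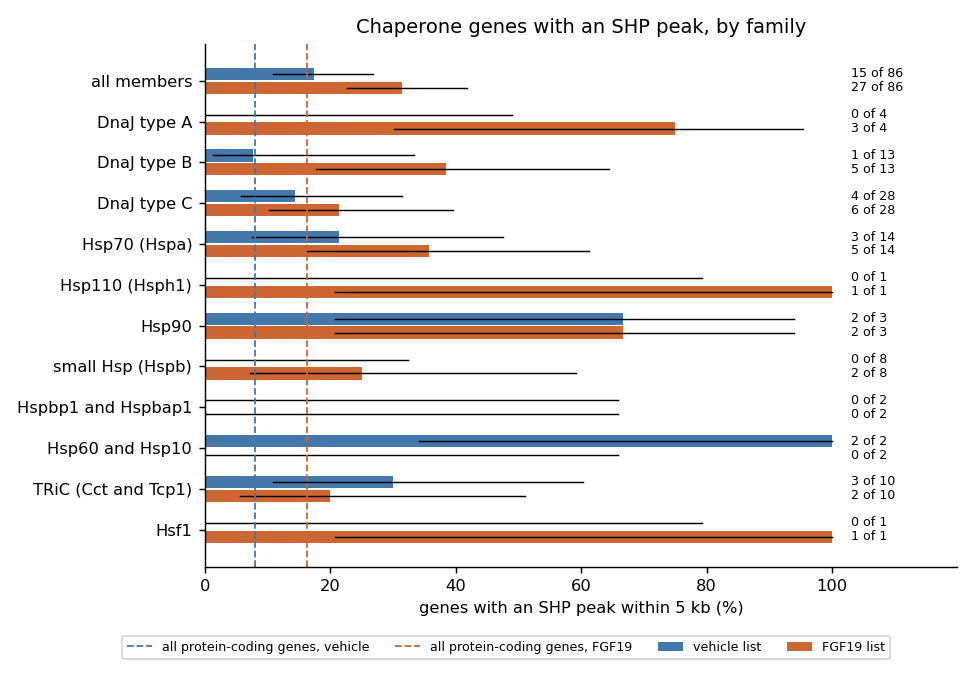
Percentage of genes in each chaperone family with an SHP peak within 5 kb, in the vehicle list (blue) and the FGF19 list (orange). Lines are 95% Wilson intervals, dashed lines mark the share of all protein-coding genes (7.93% and 16.3%), and the counts stand at the right. DnaJ type A has 0 of 4 genes with vehicle and 3 of 4 with FGF19, and Hsp60 with Hsp10 has 2 of 2 and 0 of 2.

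The proteasome subunit genes, another group of the protein quality machinery, were taken for comparison. Of 47 such genes, 11 had a vehicle peak (23.4%, 13.6 to 37.2, beside 7.93% of all genes) and 10 an FGF19 peak (21.3%, 12.0 to 34.9, beside 16.3%), and 5 were in both (10.6%, beside 4.31%). As deposited, the lists held more chaperone genes with FGF19 (27) than with vehicle (15), and fewer proteasome genes with FGF19 than with vehicle. In the FGF19 list of 1508 peaks, 12 chaperone genes and 7 proteasome genes had a peak, beside 8.06% of all genes. Both counts were then below those with vehicle. The difference in direction was thus seen only with the lists as deposited, where the intervals of the 2 groups overlapped.

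Fold enrichment at the chaperone genes lay near or below the median of each list, and pileup just above it. The median fold enrichment was 4.07 over the 14 vehicle peaks and 4.14 over all vehicle peaks. With FGF19 it was 3.68 over the 30 chaperone peaks (quartiles 3.33 and 4.25) and 4.05 over all FGF19 peaks, and 10 of the 30 lay above the median of the list. The median pileup was 25.5 tags with vehicle and 25 with FGF19, against 24 over all peaks of either list. The local background under the chaperone peaks had a median of 5.74 tags with vehicle and 5.75 with FGF19, above the 4.84 and 5.25 of all peaks. This background was itself computed from the pileup and the fold enrichment, so it is no separate measurement. Why the ratio was lower was not tested.

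**Figure D3:**
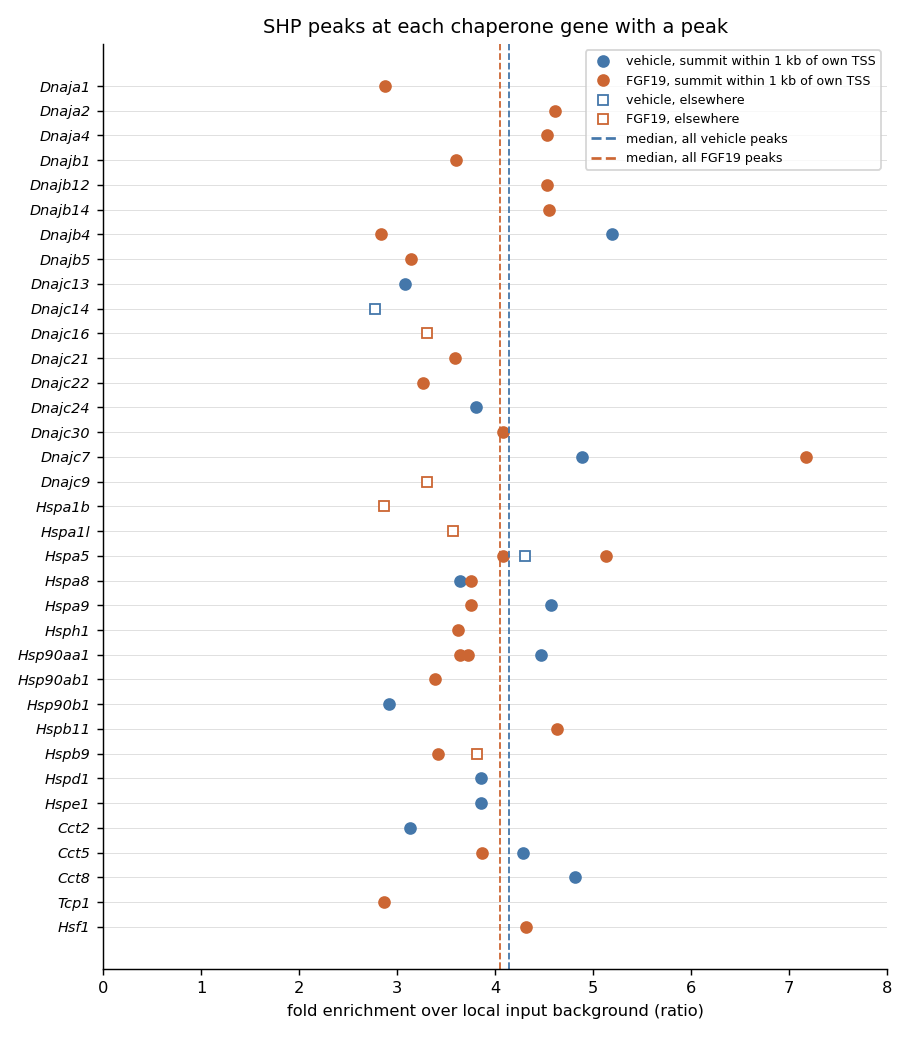
Fold enrichment over local input background (horizontal axis, ratio) of each SHP peak at the 35 chaperone genes with a peak, by gene. Filled circles are summits within 1 kb of a TSS of the gene, open squares are other peaks, and dashed lines are the medians of all peaks (4.14 with vehicle, 4.05 with FGF19). Dnajc7 with FGF19 stands at 7.18, and the other chaperone peaks lie between 2.77 and 5.19.

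Sequences around the summits were searched for elements that are known from chaperone promoters or from liver promoters in general, as exact matches on both strands. A heat shock element was read as alternating units, either as 2 units (GAANNTTC or TTCNNGAA, each its own reverse complement) or as 3 units, where the last 3 letters of one such pair open the other. The ER stress element was CCAAT and CCACG with 9 bases between them. The NF-Y core was ATTGG, whose reverse complement CCAAT is part of every ER stress element. The YY1 core was AANATGGC. According to the study, a motif with this core binds YY1 and has also been read as one of the transcription factor SREBP-2. The SP1 site was CCCCGCCCC. In the sequences printed below, capitals mark such matches and all other bases are in lower case. All are on the strand of the gene, 5′ to 3′, from mm9.

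Type A DnaJ proteins are the close relatives of the bacterial DnaJ. Dnaja1, a farnesylated partner of cytosolic Hsp70, had no vehicle peak. Its FGF19 peak at chr4:40669328-40669615 had a fold enrichment of 2.87, a pileup of 33 and a -log10 q of 4.03, with the summit 115 bp upstream of a TSS. The local background of 10.8 tags was the highest among the chaperone peaks with FGF19. The stretch chr4:40669333-40669532 is shown because its 2-unit heat shock element lies at -21 to -14 from the summit, and the same peak holds a 3-unit element further downstream, at 169 to 181.
Dnaja1: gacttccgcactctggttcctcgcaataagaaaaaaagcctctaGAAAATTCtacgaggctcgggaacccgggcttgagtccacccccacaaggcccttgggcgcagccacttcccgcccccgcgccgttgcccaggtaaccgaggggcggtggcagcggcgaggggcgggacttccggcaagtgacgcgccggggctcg

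Dnaja2, which also works with cytosolic Hsp70, had an FGF19 peak at chr8:88079006-88079269 with a fold enrichment of 4.61 and a pileup of 25. Its summit was 12 bp upstream of the TSS, the closest of the type A genes. Dnaja4, a cytosolic relative, had an FGF19 peak at chr9:54546860-54547191, in the non-coding part of an exon 290 bp downstream of the TSS. Its fold enrichment of 4.52 was above the median of the list although its pileup of 12 was the lowest of all 30 chaperone peaks, over a background of 1.87. Neither gene had a vehicle peak, and Dnaja3, the mitochondrial member, had none in either list.

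Among the type B proteins Dnajb1, the classical heat-induced Hsp40, had the highest pileup of the chaperone peaks with FGF19. The peak at chr8:86131977-86132287 had a pileup of 36, a fold enrichment of 3.60 and a -log10 q of 6.93, and its summit was 68 bp downstream of the TSS with 2-unit heat shock elements on either side of it. Dnajb12 and Dnajb14 are membrane proteins of the endoplasmic reticulum that turn their J-domain to the cytosol. Dnajb12 had an FGF19 peak at chr10:59342354-59342950 with a fold enrichment of 4.52 and a pileup of 30. Dnajb14 had one at chr3:137530489-137531003 with 4.55 and 21. The summits lay 117 and 54 bp downstream of the TSS, and none of these 3 genes had a vehicle peak.

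Dnajb5, a cytosolic Hsp40, had its FGF19 peak at chr4:42962439-42963006, with a fold enrichment of 3.14, a pileup of 24 and the summit 18 bp upstream of the TSS. Its promoter, chr4:42962451-42962705, lies wholly inside the peak and is shown because it carries 5 NF-Y cores, all as CCAAT on the strand of the gene.
Dnajb5: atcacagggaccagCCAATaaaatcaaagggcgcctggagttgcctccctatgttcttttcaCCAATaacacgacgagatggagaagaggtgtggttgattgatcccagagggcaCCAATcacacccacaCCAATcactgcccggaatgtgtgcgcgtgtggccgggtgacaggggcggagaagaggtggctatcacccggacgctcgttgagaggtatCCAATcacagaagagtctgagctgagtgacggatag

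Dnajb4, another cytosolic Hsp40, was the only type B gene with a vehicle peak. The vehicle peak at chr3:151873078-151873496 had a fold enrichment of 5.19, a pileup of 34 and a -log10 q of 11.2. The FGF19 peak at chr3:151872944-151873533 had 2.84, 26 and 2.92. The vehicle interval lies wholly inside the FGF19 interval, and the pileup scaled to the number of ChIP tags in its library (scaled pileup) with FGF19 was 0.880 times that with vehicle (exact 95% interval of the counts 0.507 to 1.51). The local background was 5.74 tags with vehicle and 8.51 with FGF19. Fubp1 starts within 1 kb of both summits, and with FGF19 its TSS, 84 bp away, was nearer than that of Dnajb4. Dnajb2, Dnajb3, Dnajb6, Dnajb7, Dnajb8, Dnajb9, Dnajb11 and Dnajb13 had no peak.

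Dnajc7, a co-chaperone with tetratricopeptide repeats that binds both Hsp70 and Hsp90, had the highest fold enrichment of the chaperone peaks with FGF19, over a low background and at a pileup near the median of the list. The FGF19 peak at chr11:100480729-100481181 had a fold enrichment of 7.18, above 97.1% of the peaks in its list, with a pileup of 25 and a -log10 q of 12.0. The vehicle peak at chr11:100480707-100481105 had 4.88, 23 and 6.75. The pileups were close, and the background was 3.92 tags with vehicle and 2.62 with FGF19. The scaled pileup with FGF19 was 1.25 times that with vehicle, with an interval of 0.681 to 2.31. Nkiras2 starts within 1 kb on the other strand. The 30 bases at chr11:100480903-100480932 are shown because the YY1 core in them lies near both summits, at -21 to -14 from the vehicle summit and at 3 to 10 from the FGF19 summit.
Dnajc7: gtcccggcggtAAGATGGCggctaccgcgg

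The other type C genes with a promoter peak were each in 1 list. With vehicle these were Dnajc13 and Dnajc24. Dnajc13, which acts on endosomes, had a peak at chr9:104164965-104165242 with a fold enrichment of 3.08 and a pileup of 17, the lowest pileup of the chaperone peaks with vehicle, 205 bp downstream of the TSS. Dnajc24, needed to make diphthamide on elongation factor 2, had one at chr2:105843304-105843553 with 3.80 and 21, 21 bp upstream of a TSS.

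With FGF19 they were Dnajc21, Dnajc22 and Dnajc30. Dnajc21, a factor of ribosome assembly, had a peak at chr15:10399979-10400341 with a fold enrichment of 3.59 and a pileup of 20. Dnajc22 had one at chr15:98929674-98929933 with 3.26 and 25, near a TSS inside the annotated gene body. Dnajc30, a mitochondrial J-domain protein, had one at chr5:135539994-135540575 with 4.07 and 22, where Wbscr22 also starts. These 3 summits lay between 29 and 82 bp from a TSS.

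The remaining type C peaks belong by position to neighbours. The FGF19 peaks counted for Dnajc16 (fold enrichment 3.31) and Dnajc9 (3.30) lay 2872 and 4799 bp upstream of those genes and 41 bp from the TSS of Casp9 and 154 bp from that of Mrps16. The vehicle peak counted for Dnajc14 (2.77) lay 1978 bp past the end of the gene and 60 bp from the TSS of Ormdl2. The other 19 type C genes, among them Dnajc3 and Dnajc10 of the endoplasmic reticulum and Dnajc5 of secretory vesicles, had no peak.

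Hspa5, also called BiP, is the Hsp70 of the endoplasmic reticulum lumen and the main sensor of unfolded protein there. It was in both lists without any overlap of its peaks. With FGF19 it had a peak at its 5′ end, at chr2:34627604-34628252, with a fold enrichment of 5.13, a pileup of 30 and a -log10 q of 9.61, and the summit lay in coding sequence 233 bp downstream of a TSS. A second FGF19 peak inside the gene at chr2:34631197-34631456 had 4.08, 22 and 5.01. The vehicle list had no peak at the 5′ end and a single one in the gene at chr2:34631483-34631798, in the non-coding part of an exon, with 4.30, 28 and 6.88. The intervals of the vehicle peak and the second FGF19 peak were 27 bp apart and their summits 327 bp apart. The 255 bases at chr2:34627384-34627638 are shown because they hold the ER stress element for which this promoter is known. They overlap the FGF19 peak by 35 bp, so that the element lies upstream of the called interval and the peak covers the start of the transcribed region.
Hspa5: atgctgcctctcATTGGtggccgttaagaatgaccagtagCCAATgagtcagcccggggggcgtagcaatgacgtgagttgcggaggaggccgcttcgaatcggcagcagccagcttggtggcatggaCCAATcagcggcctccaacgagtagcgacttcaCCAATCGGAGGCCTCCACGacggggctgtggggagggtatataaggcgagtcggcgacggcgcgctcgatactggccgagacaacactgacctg

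Hspa8, the constitutive cytosolic Hsc70, had a promoter peak in both lists. The vehicle peak at chr9:40609276-40609621 had a fold enrichment of 3.64 and a pileup of 27, and the FGF19 peak at chr9:40609482-40609769 had 3.75 and 30. The scaled pileup with FGF19 was 1.28 times that with vehicle (0.735 to 2.24). The summits were 118 bp apart, the widest gap among the common regions. The 3-unit heat shock element at chr9:40609300-40609329 lies inside the vehicle interval, at -135 to -123 from its summit, and before the start of the FGF19 interval.
Hspa8: acccTTCTGGAAGGTTCtaagacagggtat

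Hspa9, the mitochondrial Hsp70 known as mortalin, had the highest pileup of all chaperone peaks. The vehicle peak had a pileup of 56, a fold enrichment of 4.56 and a -log10 q of 16.2, and the FGF19 peak had 33, 3.75 and 6.75. The scaled pileup with FGF19 was 0.678 times that with vehicle, and its interval of 0.427 to 1.06 included 1. The summits lay 188 and 208 bp upstream of the TSS.

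The genes of heat-inducible Hsp70 lie side by side on chromosome 17 and had no promoter peak. The FGF19 peak counted for Hspa1b, at chr17:35089436-35089731 with a fold enrichment of 2.87, lay 3650 bp past the end of the gene. The peak counted for Hspa1l, a relative expressed in testis, lay at chr17:35118877-35119386 with 3.57, and its summit was 1 bp from the TSS of Lsm2. Hspa1a had no peak within 5 kb. Hspa1a and Hspa1b are near copies: 49.9% of the 100-base stretches of the Hspa1b body and 50.7% of those of its promoter window also occur in Hspa1a. The handling of reads that map to both is not given in the sources used here, so the lack of a peak there is uncertain. Hspa2, Hspa4, Hspa4l, Hspa12a, Hspa12b, Hspa13 and Hspa14 had no peak.

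Hsph1, an Hsp110 that exchanges nucleotide on Hsp70, had an FGF19 peak at chr5:150438962-150439221 with a fold enrichment of 3.62, a pileup of 26 and a -log10 q of 4.89, and no vehicle peak. The summit was 141 bp upstream of the TSS. The stretch chr5:150438932-150439131 is shown because it carries 2 NF-Y cores in opposite orientation and a 2-unit heat shock element just after the TSS, of which the heat shock element and the nearer NF-Y core lie outside the called interval.
Hsph1: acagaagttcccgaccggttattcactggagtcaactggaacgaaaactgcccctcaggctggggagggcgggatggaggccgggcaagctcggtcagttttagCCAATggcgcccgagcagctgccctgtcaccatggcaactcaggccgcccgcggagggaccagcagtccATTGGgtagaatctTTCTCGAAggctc

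The Hsp90 genes divided between the lists. Hsp90aa1, the inducible cytosolic Hsp90, had a peak in both at a TSS inside the annotated gene, with summits 6104 and 6085 bp downstream of the gene start and 229 and 248 bp upstream of that TSS. The vehicle peak at chr12:111934557-111935045 had a fold enrichment of 4.46 and a pileup of 23, and the FGF19 peak at chr12:111934639-111935072 had 3.64 and 32. With FGF19 the ratio was lower and the pileup higher, over a background of 4.38 tags with vehicle and 8.07 with FGF19. The scaled pileup with FGF19 was 1.60 times that with vehicle (0.908 to 2.87), an interval that included 1. A second FGF19 peak at the far 5′ start, chr12:111941281-111941693, had 3.72 and 14.

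Hsp90ab1, the constitutive cytosolic form, was in the FGF19 list only, with a peak at chr17:45710940-45711252 that had a fold enrichment of 3.39 and a pileup of 26. Its summit was 909 bp upstream of the TSS, the most distant of the promoter peaks upstream of a TSS. Hsp90b1, the endoplasmic reticulum form called Grp94, was in the vehicle list only, with a peak at chr10:86168357-86168635 that had 2.91 and 27. Its summit was 273 bp upstream of the TSS of Hsp90b1 and 29 bp from that of BC030307. The promoter stretch chr10:86168235-86168454 is shown because it carries 2 ER stress elements in opposite orientation, and it overlaps the peak by 98 bp. The element farther from the TSS lies inside the peak, which is 1 of 2 vehicle peaks with such an element among all 1508 (0.133%).
Hsp90b1: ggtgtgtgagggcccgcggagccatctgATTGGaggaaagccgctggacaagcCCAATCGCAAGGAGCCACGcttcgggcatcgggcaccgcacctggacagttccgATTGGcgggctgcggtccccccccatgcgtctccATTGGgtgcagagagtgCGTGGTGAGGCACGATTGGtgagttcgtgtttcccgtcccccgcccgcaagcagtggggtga

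Hspd1 and Hspe1 encode Hsp60 and Hsp10, the mitochondrial chaperonin and its lid, and lie head to head on opposite strands with overlapping annotated bodies. A vehicle peak at chr1:55144744-55144998 covered the start of Hspe1 and a TSS inside Hspd1, with a fold enrichment of 3.86, a pileup of 25 and a -log10 q of 5.01. The gene start of Hspd1 lay outside the interval, 142 bp from the summit. The FGF19 list had no peak within 5 kb of either gene. The 30 bases at chr1:55144895-55144924, on the strand of Hspd1, are shown because 4 alternating heat shock units follow each other in them, at 25 to 42 from the summit on the strand of the gene.
Hspd1: ggccTTCCGGAAGGTTCTAGAAcggaccgt

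TRiC is the cytosolic chaperonin that folds actin and tubulin, and its subunits are encoded by Tcp1 and Cct genes. The genes were taken by symbol, and whether each encodes a subunit was not checked. Cct5 was in both lists. Its vehicle peak at chr15:31531277-31531731 had a fold enrichment of 4.29 and a pileup of 32, and the FGF19 peak at chr15:31531325-31531710 had 3.86 and 20, with Fam173b starting within 1 kb. The scaled pileup with FGF19 was 0.719 times that with vehicle (0.390 to 1.30).

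Cct2 and Cct8 were in the vehicle list only. Cct8 had a peak at chr16:87495859-87496359 with a fold enrichment of 4.81 and a pileup of 26, and Cct2 one at chr10:116500816-116501089 with 3.13 and 18. The summits lay 52 and 11 bp upstream of the TSS. Tcp1 was in the FGF19 list only, with a peak at chr17:13109203-13109462 of 2.86 and 24, and its summit was 8 bp from the TSS of Mrpl18. Cct3, Cct4, Cct6a, Cct6b, Cct7 and Cct8l1 had no peak. Genes of this family were thus found in both lists, in either list alone or in none.

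Of the 8 genes counted as small heat shock proteins, 0 had a vehicle peak, beside 7.93% of all genes. An FGF19 peak was found at 2 of the 8, beside 16.3%. In each list the share of all genes lay inside the 95% interval of this family. Hspb1, Hspb2, Hspb3, Hspb6, Hspb7 and Hspb8, which include the classical stress-induced Hsp25 of mouse (Hspb1), had none. Hspb11, which despite its name is a subunit of the intraflagellar transport machinery, had an FGF19 peak at chr4:106925815-106926109 with a fold enrichment of 4.63 and a pileup of 21, and the TSS of Lrrc42 was 147 bp away. Hspb9 had FGF19 peaks at chr11:100573511-100573880 (3.82 and 19) and chr11:100574915-100575174 (3.42 and 13). The first of these lay 9 bp from the TSS of Kat2a, and the second was 170 bp upstream of Hspb9. The Hsp70-binding protein Hspbp1 and Hspbap1, an Hspb-associated protein, had none.

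Hsf1, the factor that drives the heat shock response, had an FGF19 peak at chr15:76307570-76307936 with a fold enrichment of 4.31, a pileup of 30 and a -log10 q of 7.57. It had no vehicle peak. The summit was 113 bp upstream of the Hsf1 TSS and 53 bp from that of Bop1, which is read in the other direction, and an NF-Y core lay at -9 to -5 from it and a YY1 core at 13 to 20.

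At the 6 regions with overlapping peaks the lists gave no common direction. The fold enrichment with FGF19 was higher at Dnajc7 and Hspa8 and lower at Dnajb4, Hspa9, Hsp90aa1 and Cct5, and the log2 of FGF19 over vehicle had a median of -0.22, from -0.87 at Dnajb4 to 0.56 at Dnajc7. The scaled pileup was higher with FGF19 at Dnajc7, Hspa8 and Hsp90aa1 and lower at the other 3, and the log2 ratio had a median of 0.069. The direction of that median therefore turned with the measure. The counting interval of the pileup ratio included 1 at 6 of 6 regions. The summits of the 2 lists were between 10 and 118 bp apart.

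**Figure D4:**
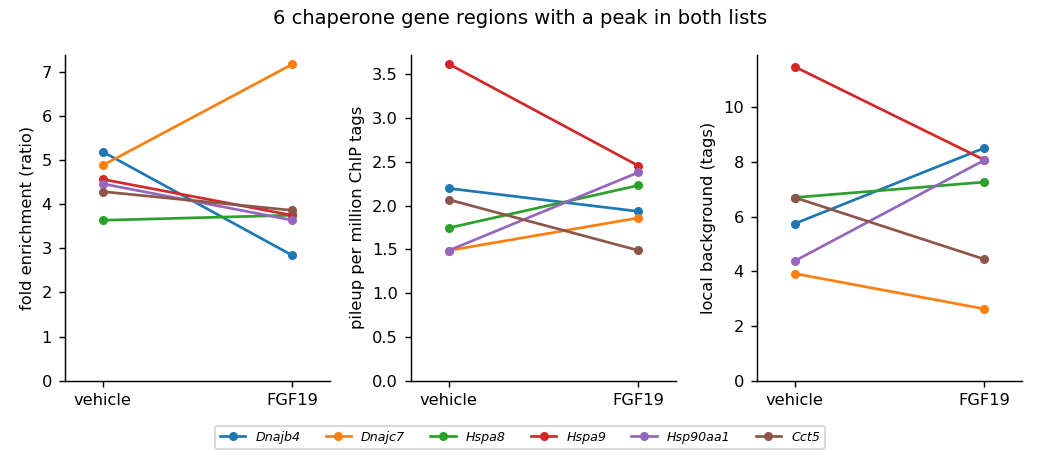
Fold enrichment (left), scaled pileup (middle, relative to the ChIP tags of the library) and local background in tags (right) at the 6 chaperone regions with overlapping peaks, each line joining the vehicle and the FGF19 value of a gene. Dnajb4 falls from 5.19 to 2.84 in fold enrichment and Dnajc7 rises from 4.88 to 7.18. Background rises with FGF19 at 3 of the 6 regions, and each point is 1 library.

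The 3-unit heat shock element was rare in the peak lists as a whole. Within whole intervals it was found in 4 of 14 chaperone peaks with vehicle (28.6%, 11.7 to 54.6) and in 13 of all 1508 vehicle peaks (0.862%), and the 4 are those of Hspa8, Hsp90aa1, Cct8 and the Hspd1/Hspe1 pair. With FGF19 it was in 1 of 30 chaperone peaks, that of Dnaja1 (3.33%, 0.591 to 16.7), and in 0.572% of all FGF19 peaks. At Hspa8 and Hsp90aa1 an FGF19 peak overlapped the vehicle peak, and the element lay outside the FGF19 interval. Close to the summits the count was smaller. Within 100 bp it was found in 1 vehicle chaperone peak, that of Hspd1/Hspe1, and in 0 of 30 with FGF19 (upper limit of the interval 11.4%), beside 0.531% and 0.191% of all peaks and 0.322% of the starts of all protein-coding genes.

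Shorter matches were more common. The 2-unit element lay near the summit, within 100 bp, in 3 of 14 chaperone peaks with vehicle (21.4%, 7.57 to 47.6, beside 7.49% of all vehicle peaks) and in 4 of 30 with FGF19 (13.3%, 5.31 to 29.7, beside 5.59%), those of Dnaja1, Dnajb1, Hspa9 and Hspb9. The NF-Y core was in 9 of 30 FGF19 chaperone peaks (30.0%, 16.7 to 47.9, beside 21.7%) and 4 of 14 with vehicle (28.6%, beside 23.5%). The YY1 core was in 3 of 30, at Dnajc7, Dnajc30 and Hsf1 (10.0%, beside 7.56%), and in 1 of 14, at Dnajc7 (7.14%, beside 9.75%). The SP1 site was in 4 of 30 (13.3%, beside 14.8%) and 1 of 14 (7.14%, beside 13.1%). In these shares the value over all peaks lay inside the interval of the chaperone peaks, with the exception of the 2-unit element with vehicle, where 7.49% lay just under it. The ER stress element was within 100 bp of no chaperone summit in either list.

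**Figure D5:**
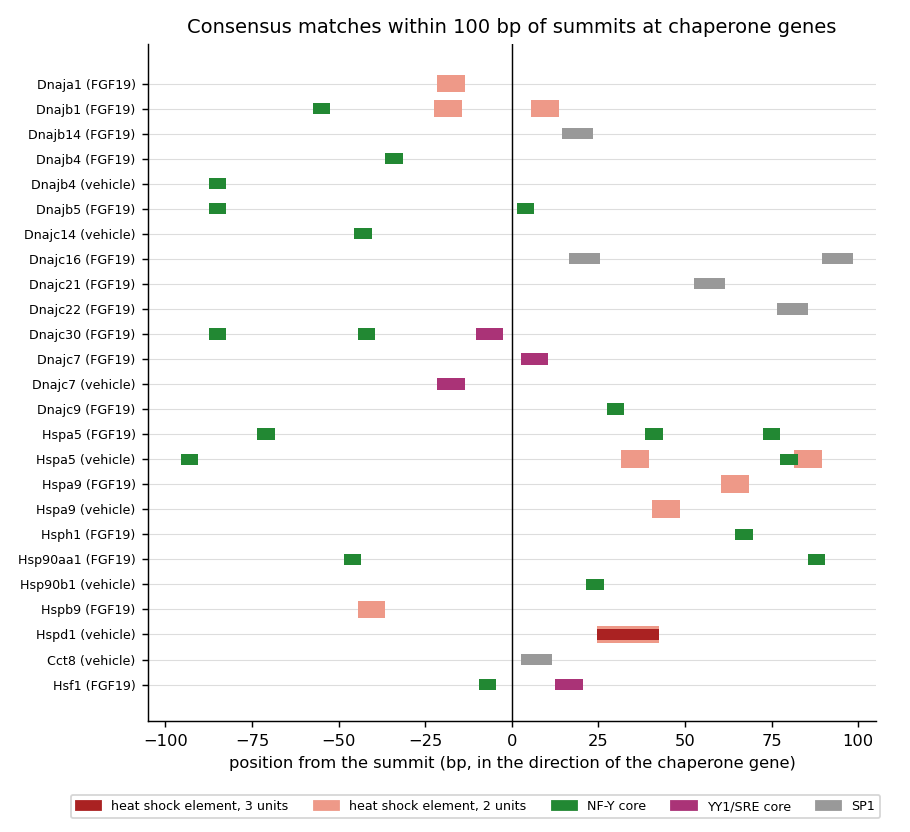
Positions of exact matches to the heat shock element (3 or 2 units), the NF-Y core, the YY1 core and the SP1 site within 100 bp of the summit (horizontal axis, bp in the direction of the chaperone gene, 0 is the summit), for the chaperone peaks with any match. The 3-unit element appears only at Hspd1 with vehicle, at 25 to 42, and the YY1 core is found at Dnajc7 in both lists, at Dnajc30 and at Hsf1.

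Some of these elements also lay in chaperone promoters without a promoter peak. Over the 300 bases from 250 before to 50 after the gene start, 17 of 86 chaperone promoters held a 2-unit heat shock element (19.8%, 12.7 to 29.4) against 14.3% of all protein-coding genes. Split by peaks, it was in 6 of 30 promoters with a promoter peak (20.0%) and 11 of 56 without (19.6%), the latter including Hspa1a, Hspb1 and Hspb8. The 3-unit element was in 1 of the 30, at Hspe1, and in 0 of the 56 (upper limit of the interval 6.42%), beside 0.483% of all promoters. The ER stress element was in 2 of 86, at Hsp90b1 and at Dnajc3, which had no peak, against 0.0983% of all promoters. At Hspa5 the annotated gene start lies upstream of the TSS used above, so its element is not in this window. The heat shock elements in the peaks of Dnaja1, Dnajb1, Hspa8 and Hspd1 also fall outside it, and these genes count as without the element. Promoter peaks were counted at any TSS, so the split by peaks does not compare the sequence of bound and unbound promoters.

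The chaperone promoters were richer in G and C than the average gene, and the share of genes with a promoter peak rose with that content over the genome. Their median GC content was 60.2%, against 55.0% for all protein-coding genes. Among all genes with a GC content under 50%, 2.98% had an FGF19 promoter peak, and among those at 70% or more 31.1% did. The chaperone genes had 2 of 13 in the first class (15.4%, 4.33 to 42.2), 9 of 28 from 50 to 60% (32.1%, 17.9 to 50.7, beside 8.64%), 5 of 33 from 60 to 70% (15.2%, 6.65 to 30.9, beside 22.0%) and 7 of 12 above (58.3%, 32.0 to 80.7). With vehicle they had 3 of 13 (8.18 to 50.3%, beside 1.3%) and 1 of 28 (0.633 to 17.7%, beside 4.52%). In the upper classes they had 5 of 33 (6.65 to 30.9%, beside 9.47%) and 4 of 12 (13.8 to 60.9%, beside 12.3%). The chaperone share was thus above that of all genes in 3 of 4 classes in each list, and below it from 60 to 70% with FGF19 and from 50 to 60% with vehicle. From 60 to 70% with vehicle, the 9.47% of all genes lay inside the chaperone interval. The class follows the gene start and not the bound TSS. The genes under 50% with a promoter peak were Dnajc24, Hsp90aa1 and Cct5. Within 100 bp of their vehicle summits the GC content was 58.7, 70.1 and 60.7%.

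Genes that work with these chaperones were counted beside them, from a list of 45 symbols of which 44 were found. An SHP peak was near 5 of the 44 with vehicle (11.4%, 4.95 to 24.0, beside 7.93% of all genes). With FGF19 it was near 14 (31.8%, 20.0 to 46.6, beside 16.3%), and 3 were in both lists (6.82%, beside 4.31%). In the FGF19 list of 1508 peaks 6 of the 44 had a peak, beside 8.06% of all genes. In the endoplasmic reticulum group 0 of 8 had a vehicle peak (beside 7.93% of all genes) and 5 had an FGF19 peak (beside 16.3%), of which Calr alone was left in the FGF19 list of 1508 peaks. These were Calr and Canx, the lectin chaperones of glycoproteins (highest fold enrichment 4.25 and 2.94), the disulphide isomerases Pdia4 and Pdia6 (3.89 and 2.92), and Hyou1 (3.13), a nucleotide exchange factor of Hspa5 whose peak lay 6462 bp from its TSS. Of 18 cytosolic co-chaperones, Bag4, Bag5, Fkbp4 and Unc45a were in the FGF19 list only (22.2%, beside 12.0% of all genes). The Fkbp4 peak lay 12825 bp from the nearest TSS of the gene. Fkbp5 and St13 were in the vehicle list only (11.1%, beside 3.62%). Ptges3, the Hsp90 co-chaperone p23, was in both (5.56%, beside 4.31%), with a fold enrichment of 3.12 with vehicle and 3.91 with FGF19.

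Of the heat shock factors and their binding protein, Hsf2 (3.58) and Hsbp1 (3.54) had FGF19 peaks at their promoters and Hsf4 had none. Together with Hsf1, 3 of these 4 genes were in the FGF19 list and 0 in the vehicle list, beside 16.3% and 7.93% of all genes, and Hsf1 alone was left in the FGF19 list of 1508 peaks. The mitochondrial protease Lonp1 was in both lists, with 4.88 and 5.13 at its promoter, and the translocon J-domain protein Sec63 was in both with 3.11 and 4.52. None of the 5 prefoldin subunits found had a peak.

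The 5 kb limit decided a few entries. The farthest peaks counted were those of Hspa1b and Dnajc9, 3650 and 4650 bp from the gene body, with fold enrichments of 2.87 and 3.30. Beyond the limit Dnajb7 had a vehicle peak at 6991 bp (2.84), Dnajc18 had a peak in each list at 8787 bp with vehicle (5.26) and 8755 bp with FGF19 (3.43), and the peak at Lsm2 lay 9808 bp from Hspa1a (3.57). Hspa9 had a further peak in each list at 5453 bp with vehicle (4.46) and 5086 bp with FGF19 (4.52).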

How the data were processed

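ChIP-seq for SHP was done on 1 pooled library of 3 mice per group, each with its own input. Per the labels and the methods of the study, the authors aligned reads to mm9 with Bowtie 1.0.0, after base calling with CASAVA 1.8.2, and called peaks per group with MACS2 2.0.10.20130501 at a q-value cutoff of 0.05. The deposited lists give for each peak a pileup signal, a fold enrichment ratio, and the -log10 of its p-value and q-value, and these were used as deposited.

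The local background was computed as (pileup + 1) / fold enrichment - 1. Peaks were joined to GENCODE M1 and to the mm9 genome, and peaks of the lists were common when they shared at least 1 bp. Pileups were divided by the ChIP tags of their library for ratios, which carry exact binomial 95% intervals for the counts of tags. Sequence matches were exact, on both strands, within 100 bp of the summit unless stated. The 7 FGF19 peaks on the mitochondrial chromosome were left out of sequence counts. Named with values are the genes with a promoter peak or with peaks in both lists, and other genes are given by position or by name. The members, families and partner lists were chosen with earlier results of these data known, and the ER stress element and the counts over whole intervals were added after the peaks had been seen. No test between groups was possible. The promoter sequence of 1 gene is not reported here.

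On simulated data, 142 of 142 checks of the functions returned the answer that had been put in. Alternatives covered distance, threshold, list length, measure and search window. Tables were handled in pandas 2.3.3 and numpy 2.4.6 under Python 3.11.15, intervals came from scipy 1.17.1, the genome was indexed with samtools 1.23.1 and read with pyfaidx 0.9.0.4, and figures were drawn in matplotlib 3.10.9.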

Additional observations from a re-analysis of the deposited data

How the results depend on the processing

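Of 60 values recomputed under the alternatives, 45 stayed within a set limit. It was 1.5 times a reported count, the counting interval of a percentage, or the quartiles around a median. All 20 counts that changed how peaks were joined to genes stayed within it. These used 1 kb or 10 kb around the gene, promoter summits only, or each peak given only to the gene of the nearest TSS. The vehicle count beside the shortened FGF19 list is also among the 45, and it could not change. Stricter thresholds lowered the counts. With -log10 q of at least 5, 9 chaperone genes had a vehicle peak, 13 an FGF19 peak, 4 both, 9 FGF19 only and 5 vehicle only, and 92.9% of FGF19 chaperone peaks were in a promoter of the gene. With a fold enrichment of at least 4 the counts were 7, 9, 2, 7 and 5. No share over all genes was taken at these thresholds, so the counts say nothing about chaperone genes in particular. With the FGF19 list shortened to the length of the vehicle list, 12 genes had an FGF19 peak, beside 8.06% of all genes. An FGF19 peak only was found at 7, without a share over all genes. At the common regions, the log2 of FGF19 over vehicle had a median of 0.069 with scaled pileup, against -0.22 with fold enrichment and -0.43 with -log10 q. The pileup leaves out the input background, which the fold enrichment divides by. No paired analysis was possible because each group is 1 pooled library and the labels give no replicate numbers, and for the same reason no replicate could be left out. With about 25 tags at a typical summit, the counting intervals of the pileup ratios included 1 at all 6 common regions.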
